A study of Gallus gallus with 48 samples.

Results

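The heart of lowland chickens was compared between 2 altitudes, with 3 RNA-seq libraries from birds at 3300 m (HLC) and 3 libraries from birds at 670 m (LC). These 6 libraries were chosen by tissue, chicken type and altitude as the labels and column names give them, and they are 6 of 48 libraries of brain, heart, liver and lung. The other 6 heart libraries are from Tibetan chickens at 3300 m (TC) and at 670 m (LTC), 3 of each, and they enter here for the spread between libraries and for the comparison of the chicken types. The labels do not spell out HLC and LTC, which were read from the shared letters and the altitude, and they name no breed, age, sex, part of the heart or time spent at altitude. Nothing says that each library was made from its own bird. The p-values then cover the spread between libraries only, and that spread may be technical.

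The heart lives almost wholly on oxidative metabolism, and its muscle contracts when calcium, released from internal stores after each action potential, lets myosin pull on actin. Thin air lowers the oxygen that reaches this tissue. Hypoxia-inducible factors, adenosine signalling, a shift of fuel use and growth of the right ventricle against a raised pulmonary pressure are textbook responses of birds and mammals to it, and fast-growing broilers are known for right heart failure at altitude.

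The table holds 17108 Ensembl genes in FPKM, which are fragments of a gene over its transcript length and over the fragments mapped in that library. The files pair no ID with a gene name, so symbols came from a list of genes in selected regions, in a population genomics paper on chickens that describes no RNA-seq, and cover 1183 genes, or 6.91%. Of the 10376 genes tested in heart, those reaching 1 FPKM in 3 or more of the 12 heart libraries, 840 had a symbol. Differences are HLC minus LC on the log2(FPKM + 1) scale, which understates the change of low genes, and they were tested with limma and Benjamini-Hochberg adjustment over all 10376 genes. Every comparison was made on the values as deposited and again with each library scaled to the same 75th percentile (upper quartile).

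The libraries carried a cardiac pattern. All 13 cardiac muscle markers with a symbol had a higher median over the 12 heart libraries than over the 36 others, and in 11 of them every heart library was above every other library. MYH15, the ventricular myosin heavy chain of birds, lay between 2001 and 5926 FPKM in heart and between 0.151 and 3.29 FPKM in the other tissues. ACTN2, the actinin of the Z-disc, lay between 393 and 935 FPKM in heart and between 0.0108 and 31.8 FPKM elsewhere. Markers of skeletal muscle summed to at most 3.47 FPKM, of liver to at most 7.28 FPKM and of lung to at most 1.81 FPKM in the 6 lowland libraries.

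Within HLC, HLC3 stood apart. Across the genes tested its log values correlated with HLC1 at r = 0.934 and with HLC2 at r = 0.941, whereas HLC1 and HLC2 correlated at r = 0.983 and HLC3 with LC1 at r = 0.951. White blood cell markers, 19 genes with a symbol, summed to 77.6, 72.1 and 189 FPKM in HLC1, HLC2 and HLC3, against 88.7, 39.3 and 54.7 FPKM in LC1, LC2 and LC3. In 18 of the 19 HLC3 held the highest value of the 6 lowland libraries. DOCK2, an exchange factor that lymphocytes need to migrate, had 0.684, 0.590 and 13.0 FPKM in HLC, against 3.35, 0.551 and 0.838 FPKM in LC. The groups overlapped for DOCK2, and HLC3 alone was high. DOCK2 is an example from the list, taken outside the naming rule described below. In whole tissue, more cells of a type and more RNA per cell cannot be told apart. TC2 stood apart as well, with a mean r of 0.929 to its own group, the lowest of the 12 heart libraries, beside 0.937 for HLC3.

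The libraries also differed in how much of the FPKM sum a few genes took. The 10 most abundant genes of each library held 29.1, 27.0 and 27.0% of its sum in HLC, against 38.2, 39.2 and 40.1% in LC, so that the groups did not overlap. None of the 10 genes with the highest mean over the 6 libraries had a symbol. In 8 of these 10 every HLC library was below every LC library, beside 2.82% of all genes tested, and none was past the threshold. The 75th percentile over the genes tested was 16.4, 16.5 and 18.6 FPKM in HLC, against 15.5, 15.3 and 13.96 FPKM in LC, the other way round. The FPKM sums were not constant, at 594208 to 647578 in HLC and 619375 to 722792 in LC. A smaller share of the top genes did not always go with a higher 75th percentile. In LTC3 the top genes held 45.0%, and the 75th percentile was 17.1 FPKM, above HLC1 and HLC2. Whether the share of the top genes set the shift of the other genes was not tested.

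**Figure D1:**
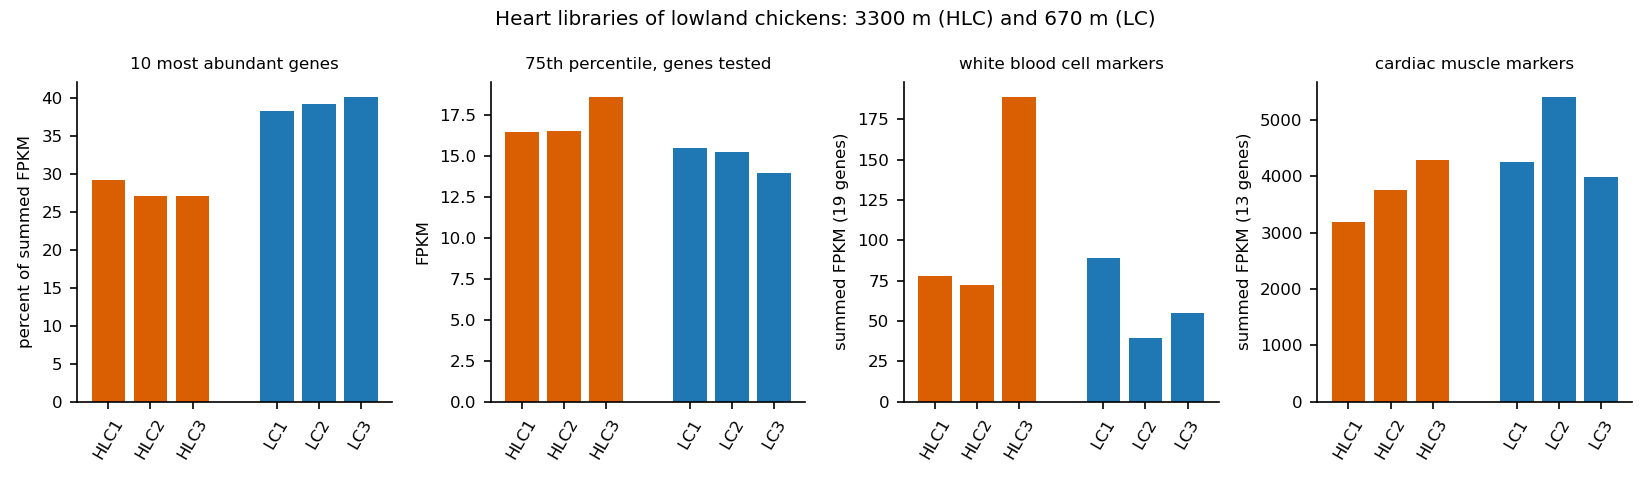
Share of the summed FPKM held by the 10 most abundant genes (percent), 75th percentile over the genes tested (FPKM), and summed FPKM of 19 white blood cell markers and of 13 cardiac muscle markers, as 1 bar for each of the 3 HLC libraries (orange) and the 3 LC libraries (blue). The top-gene share is 27.0 to 29.1% in HLC and 38.2 to 40.1% in LC, and HLC3 carries 189 FPKM of white blood cell markers.

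In the comparison of HLC with LC few genes were past the threshold. As deposited, 4 of 10376 genes were, 1 higher (0.00964%) and 3 lower (0.0289%), and none of them had a symbol. After upper quartile scaling 13 were, 2 higher (0.0193%) and 11 lower (0.106%), again none with a symbol, and all 4 of the first fit were among them. At an unadjusted p under 0.05, 1319 genes were past as deposited, 1125 higher (10.8%) and 194 lower (1.87%), while after scaling there were 902, 451 higher (4.35%) and 451 lower (4.35%). The smallest adjusted p of a gene with a symbol was 0.0712 as deposited and 0.0983 after scaling (limma, Benjamini-Hochberg).

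The direction of the many small differences followed the scaling. As deposited the median difference of all genes was 0.22 and 77.1% of genes were above 0, whereas after scaling the median was 0.05 and 57.6% were above 0. A fit of all 48 libraries with 16 group means, which takes the spread from 4 tissues, called 786 genes as deposited (672 higher and 114 lower) and 412 after scaling (175 higher and 237 lower), with 61 and 36 of them having a symbol. Leaving out TC2, a heart library of the Tibetan chickens that enters only through the spread, gave 21 genes as deposited and 35 after scaling. As deposited, 7 genes were called without LC2 or without TC1 and 8 without LC3. After scaling, leaving out any library other than LC3, TC1 or TC2 gave 4 to 8 genes.

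**Figure D2:**
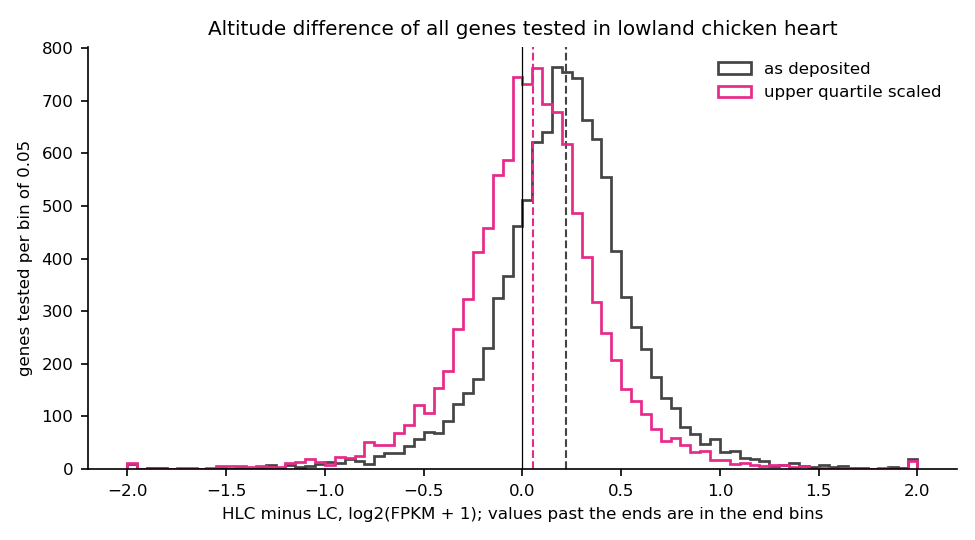
Histogram of HLC minus LC for all 10376 genes tested, log2(FPKM + 1), as deposited (grey) and after upper quartile scaling (pink), with dashed lines at the medians of 0.22 and 0.05. The whole distribution moves towards 0 with the scaling.

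Of the 4 genes past the threshold in both scalings, 3 were lower in HLC. ENSGALG00000008040 had 17.7, 13.8 and 26.7 FPKM in HLC, against 102, 70.7 and 109 FPKM in LC. It fell by 2.24 on the log2 scale (standard error 0.24, adjusted p = 0.00311), and by 2.44 after scaling (adjusted p = 0.00251). All 3 HLC libraries lay below all other heart libraries, of which TC held 53.8 to 71.7 FPKM and LTC 60.1 to 70.7 FPKM. The share of all genes tested in this order was not counted. In a fit of the 6 lowland libraries alone its adjusted p was 0.0512 as deposited and 0.0507 after scaling. In liver ENSGALG00000008040 had 46.0 to 53.4 FPKM in HLC, against 74.5 to 127 FPKM in LC, and in lung 0.829 to 2.17 FPKM in HLC, against 2.89 to 4.87 FPKM in LC. In brain it was under 1 FPKM in every library.

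ENSGALG00000014433 had 33.9, 31.3 and 25.5 FPKM in HLC, against 127, 103 and 190 FPKM in LC. It fell by 2.14 (standard error 0.26, adjusted p = 0.0088), and by 2.34 after scaling (adjusted p = 0.00508). The groups did not overlap. As deposited its adjusted p was 0.0587 without HLC2 and 0.0544 without HLC3. After scaling it was 0.0665 in the 6 lowland libraries alone. In liver its values were 49.4 to 69.4 FPKM in HLC, against 231 to 398 FPKM in LC, and in brain the order was the other way, with 27.3 to 41.1 FPKM in HLC, against 20.4 to 24.2 FPKM in LC. In lung the groups overlapped.

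The third gene lower in both scalings also has no symbol. It had 196, 137 and 147 FPKM in HLC, against 554, 505 and 631 FPKM in LC, a log2 difference of -1.82 (adjusted p = 0.0024). The order was not particular to heart. In liver this gene had 62.4 to 79.7 FPKM in HLC, against 506 to 661 FPKM in LC. In lung it had 47.6 to 53.7 FPKM in HLC, against 56.8 to 61.5 FPKM in LC. Brain went the other way, with 49.4 to 64.1 FPKM in HLC, against 42.8 to 48.4 FPKM in LC. Another 8 genes were lower after scaling only, with log2 differences from -2.29 to -1.01 and adjusted p from 0.015 to 0.0481. As deposited these 8 had adjusted p from 0.0526 to 0.101. In each of them every HLC library was below every LC library, beside 2.82% of all genes tested. The 8 were called on their HLC and LC values, so this order follows from the call and is no further support. HLC had the lowest of the 4 heart group means in all 8, and LC had the highest in 6. These ranks also follow in part from the call, and their share among all genes tested was not counted.

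The genes called higher rest on exact zeros. ENSGALG00000027880, the only gene called higher as deposited, was listed at 4037, 1982 and 1187 FPKM in HLC and at 0 in the other 9 heart libraries, so that no fold is given. It was at 0 in all 12 brain libraries, in 11 of 12 liver libraries and in 9 of 12 lung libraries, and reached 6029 FPKM in a liver library of LC and 10020.1 FPKM in a lung library of the Tibetan chickens. Across the deposited values, 34 genes were at 0 in at least 6 heart libraries and over 100 FPKM in another. Of these, ENSGALG00000027880 was at 0 in 41 of 48 libraries. The highest value, 119439 FPKM, was of ENSGALG00000021717, which was at 0 in 11 of 48. Whether a listed 0 or a high value is a failed estimate was not tested. ENSGALG00000020303, called after scaling only, was at 1.04, 1.47 and 1.32 FPKM in HLC and listed at 0 in all 3 LC libraries. In liver it had 5.33 to 8.45 FPKM in HLC, against 0.670 to 1.21 FPKM in LC. Both genes reached 1 FPKM in heart only in the 3 HLC libraries, and passed the filter only through them. Their calls as higher are therefore not independent of the filter. Without the 7 genes listed at 0 in all libraries of HLC or of LC, an alternative chosen after seeing the data, no gene was called higher, and 3 were called lower as deposited and 5 after scaling. Of the genes kept, 1314 were at an unadjusted p under 0.05 as deposited and 896 after scaling.

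None of the genes with a symbol passed the threshold, and those with the smallest p are given here as values. Since they were picked by p, groups that do not overlap are no further support for them. As deposited every HLC library was above every LC library in 16.9% of all genes tested, and below in 2.82%. How many genes had every HLC library beyond every other heart library was not counted. SLC22A3, an organic cation transporter that takes up monoamines, had 12.5, 17.6 and 13.7 FPKM in HLC, against 2.03, 2.01 and 1.67 FPKM in LC. The log2 difference was 2.41 (standard error 0.45, adjusted p = 0.0712), and 2.25 after scaling (adjusted p = 0.0983). The HLC libraries lay above all 9 other heart libraries, whose highest value was 6.79 FPKM in TC1. As deposited its adjusted p from limma was 0.0185 in the 6 lowland libraries alone, 0.0226 without TC1, 0.0335 without TC2 and 2.07e-05 with all 48 libraries. Leaving out any other single heart library did not carry SLC22A3 past the threshold. The fit of 48 libraries takes the spread also from tissues where the gene is low, with 0.0742 to 1.18 FPKM over the liver libraries. In liver and lung the HLC and LC values of SLC22A3 overlapped, at 0.186 to 0.677 FPKM in HLC and 0.0742 to 0.421 FPKM in LC for liver, and at 0.980 to 2.31 FPKM in HLC and 1.36 to 4.06 FPKM in LC for lung.

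SDF2L1, an endoplasmic reticulum protein that works with chaperones on unfolded proteins, had 12.03, 12.3 and 12.2 FPKM in HLC, against 6.26, 6.25 and 4.85 FPKM in LC. The log2 difference was 0.96 (standard error 0.18, adjusted p = 0.0712) as deposited and 0.78 (adjusted p = 0.146) after scaling. All 3 HLC libraries were above the 9 others. The order was not particular to heart. In brain SDF2L1 had 15.6 to 27.2 FPKM in HLC, against 14.9 to 15.5 FPKM in LC. In lung it had 18.3 to 24.2 FPKM in HLC, against 15.8 to 16.8 FPKM in LC, while in liver the groups overlapped. EPHA5, a receptor for ephrins, had 7.94, 9.36 and 7.94 FPKM in HLC, against 4.87, 5.21 and 3.64 FPKM in LC. CYB5A, the cytochrome b5 that passes electrons to lipid desaturases, had 43.7, 59.7 and 51.4 FPKM in HLC, against 28.9, 36.6 and 27.7 FPKM in LC. Neither gene overlapped between the groups, and their adjusted p were 0.125 and 0.142. MFSD2A, which carries lysophosphatidylcholine with long fatty acids across membranes, had 2.44, 3.66 and 3.02 FPKM in HLC, against 0.529, 2.03 and 0.547 FPKM in LC (log2 difference 0.93 after scaling, adjusted p = 0.276). In lung CYB5A had 132 to 207 FPKM in HLC, against 81.2 to 106 FPKM in LC. There MFSD2A had 4.64 to 7.54 FPKM in HLC, against 3.13 to 3.43 FPKM in LC. Both genes overlapped in brain and liver, and EPHA5 overlapped in brain, liver and lung.

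In the other direction, KLHL38, a kelch-like protein, had 1.16, 1.88 and 2.69 FPKM in HLC, against 4.40, 6.35 and 5.83 FPKM in LC. The log2 difference was -1.19 (standard error 0.33, adjusted p = 0.193), and -1.34 after scaling (adjusted p = 0.179). SMARCD3, a subunit of the chromatin remodelling complex that helps to start the cardiac gene programme in mammals, had 6.41, 6.14 and 7.83 FPKM in HLC, against 10.8, 11.2 and 8.80 FPKM in LC (-0.53 as deposited, adjusted p = 0.247, and -0.71 after scaling, adjusted p = 0.145). The HLC libraries held the lowest values of all 12 heart libraries for both genes, an order whose share among all genes tested was not counted. KLHL38 was at most 0.477 FPKM in every brain, liver and lung library. SMARCD3 went the other way in brain, with 10.8 to 11.9 FPKM in HLC, against 8.43 to 9.42 FPKM in LC, and overlapped in liver and lung.

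MCEE, an enzyme that prepares propionate carbon for the citric acid cycle, had 13.1, 12.04 and 11.3 FPKM in HLC, against 27.9, 16.8 and 19.0 FPKM in LC (log2 difference -0.73, adjusted p = 0.222). It did not overlap between the groups in the other tissues either, with 5.78 to 7.21 FPKM in HLC and 10.2 to 13.8 FPKM in LC for liver. CLASP1, which stabilises growing microtubule ends, had 6.03, 4.80 and 7.24 FPKM in HLC, against 13.3, 19.5 and 7.26 FPKM in LC (adjusted p = 0.261). Its HLC3 and LC3 values nearly met. OSBPL10, a protein that binds oxysterols, had 1.97, 2.44 and 2.76 FPKM in HLC, against 3.86, 3.91 and 3.44 FPKM in LC (-0.64 after scaling, adjusted p = 0.179). In liver OSBPL10 had 1.80 to 2.91 FPKM in HLC, against 4.09 to 4.58 FPKM in LC, while in brain and lung the groups overlapped.

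**Figure D3:**
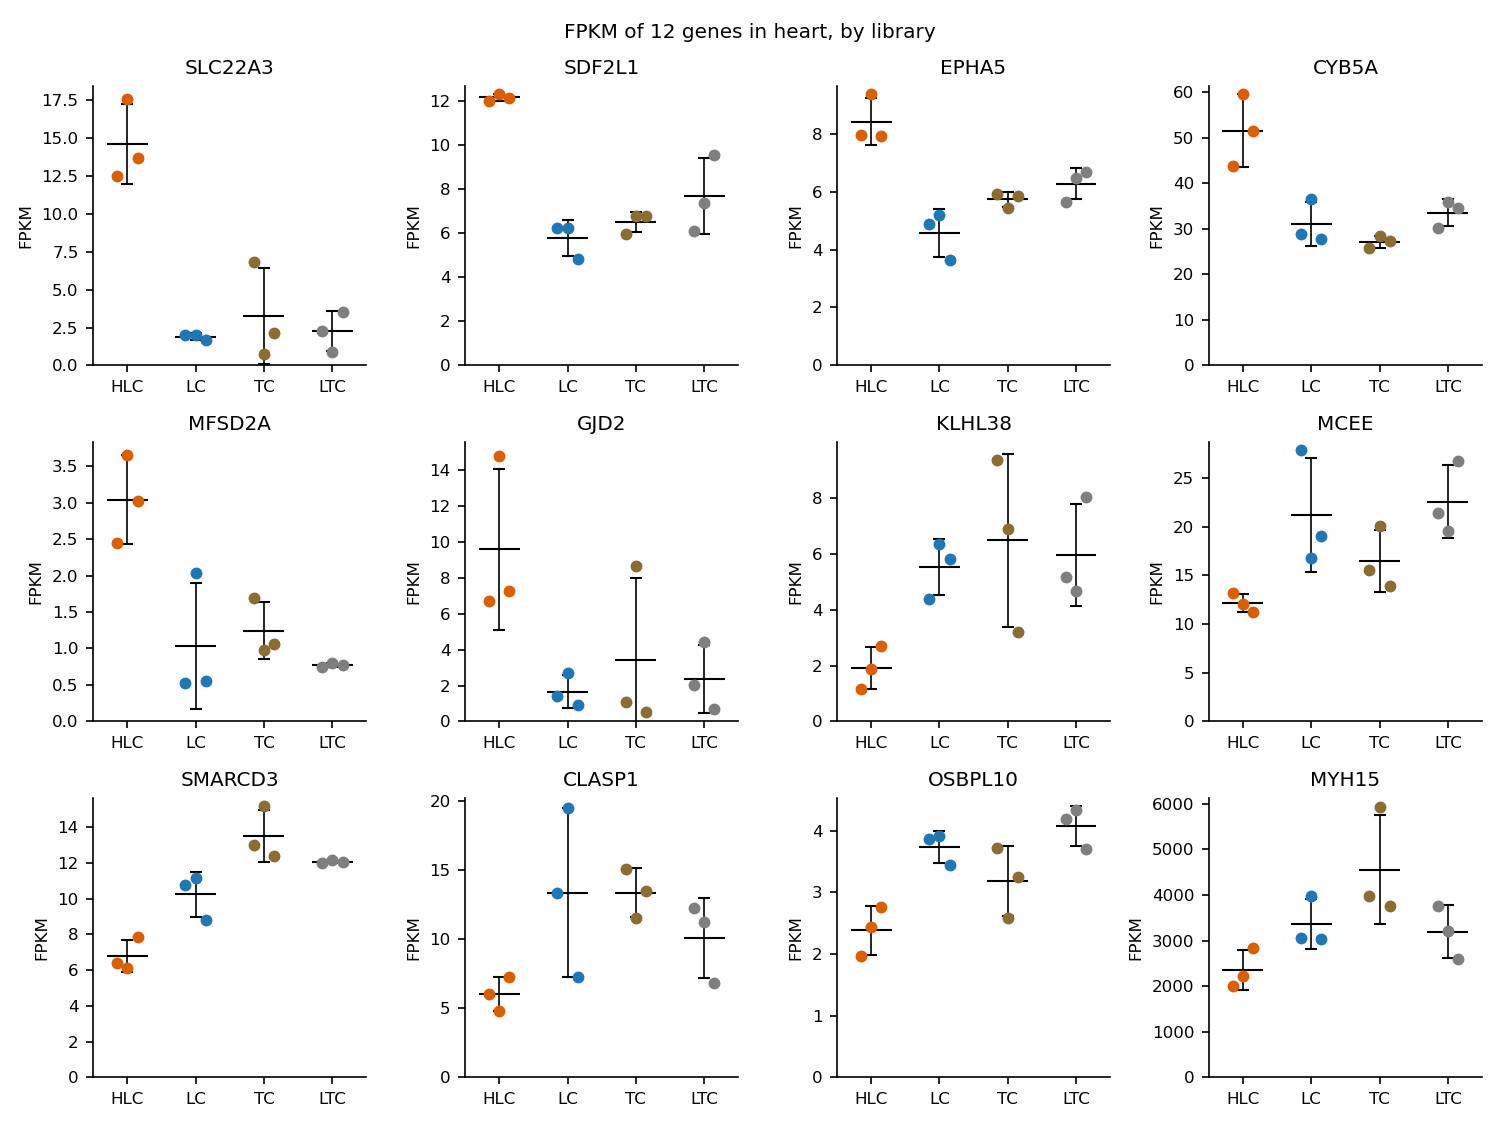
FPKM of 12 genes in the 12 heart libraries, with 1 point per library, the group mean as a line and the SD as a bar (n = 3 per group), for lowland chickens at 3300 m (HLC) and 670 m (LC) and Tibetan chickens at 3300 m (TC) and 670 m (LTC). SLC22A3 is at 12.5 to 17.6 FPKM in HLC and at 1.67 to 2.03 FPKM in LC, and KLHL38 at 1.16 to 2.69 FPKM in HLC and 4.40 to 6.35 FPKM in LC.

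Gene lists of cardiac biology were described by counts at an unadjusted p under 0.05, since no member of any list passed the adjusted threshold in either scaling. The lists were chosen with earlier results of these data known, so their counts and medians describe the members and test nothing. Each list had a symbol for well under 80% of its members, so the counts stand for the named members only. They are to be read against the shares among all genes tested, 10.8% higher and 1.87% lower as deposited, and 4.35% each way after scaling. Whether the groups overlap is said of the deposited values unless the scaling is named. As deposited every HLC library was above every LC library in 16.9% of all genes tested and below in 2.82%, and after scaling in 6.68% and 6.77%.

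The counts as deposited moved with HLC3 and LC3, the libraries left out in turn here. Without HLC3, which gave 8.21% of all genes higher and 2.31% lower, the members higher were 1 in place of 3 in the hypoxia list, 1 in place of 3 in the stress list, 2 in place of 4 in the mitochondrial list and 2 in place of 3 in the ion channel list. The members lower were 1 in place of 2 in the mitochondrial list and 0 in place of 1 in the hypertrophy list, while the sarcomere list had 0 higher and 2 lower. Without LC3, which gave 9.94% higher and 3.48% lower, 1 was higher in the hypoxia list and 2 in the mitochondrial list, and 2 were lower in each of the ion channel, sarcomere and transcription factor lists. After scaling the 2 lower genes of fuel use were lost without either library.

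Of the sarcomere list, 9 of 51 genes were tested, with 1 higher and 1 lower as deposited and 0 higher and 3 lower after scaling. MYH15 had 2001, 2223 and 2835 FPKM in HLC, against 3062, 3985 and 3038 FPKM in LC. The groups did not overlap, and the log2 difference was -0.52 (adjusted p = 0.393 from limma), or -0.72 after scaling (adjusted p = 0.429). MYPN, myopalladin, a Z-disc protein that binds actinin, had 6.37, 11.9 and 15.2 FPKM in HLC, against 7.34, 6.44 and 1.51 FPKM in LC, and NRAP, a scaffold for new myofibrils, had 45.4, 91.1 and 169 FPKM in HLC, against 26.4, 91.5 and 15.9 FPKM in LC. Both overlapped, and LC3 held the lowest value. The unadjusted count of MYPN as higher was lost without HLC3 and also without LC3. The median of the list was 0.12 as deposited and -0.08 after scaling, beside 0.22 and 0.05 for all genes.

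Of the list of calcium handling and excitation-contraction coupling, 27 of 55 genes were tested, and 0 were past p of 0.05 in either direction under either scaling. LETM1, a cation exchanger of the inner mitochondrial membrane, had 10.1, 10.2 and 10.5 FPKM in HLC, against 9.53, 8.53 and 4.16 FPKM in LC. TRDN, triadin, which anchors the calcium release channel, had 13.0, 15.7 and 12.7 FPKM in HLC, against 11.04, 11.02 and 9.24 FPKM in LC. Their groups overlapped only after scaling, with adjusted p of 0.412 and 0.425 from limma as deposited. GNB1, a G protein subunit, and PDE3B, which breaks down cyclic AMP, overlapped between the groups with log2 differences of 0.44 and 0.58.

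LC3 differed from its group here. RYR2, the calcium release channel itself, had 33.1, 40.8 and 52.3 FPKM in HLC, against 86.5, 136 and 26.3 FPKM in LC, and CACNA1C, the L-type calcium channel, had 5.50, 6.08 and 5.25 FPKM in HLC, against 9.10, 9.26 and 1.78 FPKM in LC. These genes were picked after their values were seen. Without LC3, 2 members of the calcium list were lower as deposited and 4 after scaling, beside 3.48% and 6.53% of all genes tested. LC3 also had the fewest genes at 1 FPKM or more of the 12 heart libraries, 8980, where the range of the others reached 10350.

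Of the list of ion channels and conduction, 6 of 33 genes were tested, with 3 higher and 0 lower as deposited, and 1 higher and 1 lower after scaling. GJD2, a connexin that forms electrical junctions between cells, had 6.72, 14.8 and 7.28 FPKM in HLC, against 1.39, 2.71 and 0.894 FPKM in LC, a log2 difference of 1.97 (adjusted p = 0.254). The Popeye proteins bind cyclic AMP in cardiac membranes and keep pacing stable under stress in mice. BVES had 155, 194 and 168 FPKM in HLC, against 104, 121 and 138 FPKM in LC, which overlapped only after scaling, and POPDC3 had 28.3, 25.2 and 37.4 FPKM in HLC, against 16.5, 29.3 and 18.1 FPKM in LC.

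Of the cardiac transcription factors, 10 of 33 were tested, with 2 higher and 1 lower as deposited and 1 of each after scaling. The lower one was SMARCD3. GATA5, a zinc finger factor of the endocardium and heart field, had 113, 155 and 191 FPKM in HLC, against 63.1, 80.9 and 113 FPKM in LC, a log2 difference of 0.84 (adjusted p = 0.283). HEYL, a repressor induced by Notch, had 23.2, 18.8 and 8.94 FPKM in HLC, against 4.89, 8.60 and 8.31 FPKM in LC, a difference of 1.06 (adjusted p = 0.349). Both overlapped after scaling but not as deposited. NFATC3, which carries calcineurin signals to the nucleus, overlapped at 8.59, 8.66 and 14.4 FPKM in HLC, against 9.54, 7.19 and 1.52 FPKM in LC.

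For fuel use, 13 of 75 listed genes were tested, with 0 past p of 0.05 as deposited, and 0 higher and 2 lower after scaling. PRKAB2, a subunit of AMP-activated kinase, had 14.8, 17.6 and 17.3 FPKM in HLC, against 21.7, 18.4 and 32.1 FPKM in LC. SLC25A20, which brings acylcarnitines into mitochondria for fatty acid oxidation, had 13.8, 13.3 and 15.3 FPKM in HLC, against 16.3, 15.5 and 20.4 FPKM in LC. Neither overlapped, with differences of -0.67 and -0.47 after scaling (counted as lower at an unadjusted p under 0.05). SLC2A3, a glucose transporter, overlapped between the groups. The list's median was 0.12 as deposited and -0.08 after scaling.

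For mitochondrial respiration, ribosome and import, 22 of 80 genes were tested, with 4 higher and 2 lower as deposited, and 1 higher and 2 lower after scaling. TFB1M, which methylates mitochondrial ribosomal RNA, had 0.965, 1.59 and 2.03 FPKM in HLC, against 2.87, 2.62 and 2.86 FPKM in LC (adjusted p = 0.271). SLC25A37, mitoferrin, which brings iron into mitochondria and is high in red blood cell precursors, had 11.4, 21.5 and 8.31 FPKM in HLC, against 2.42, 9.31 and 1.92 FPKM in LC, so that the groups overlapped. It was also the one red blood cell marker with a symbol, and its part as a sign of blood was not tested. TOMM20, an import receptor, had 109, 122 and 104 FPKM in HLC, against 84.0, 95.9 and 84.3 FPKM in LC, and MFF, a fission factor, had 18.9, 17.8 and 20.5 FPKM in HLC, against 14.9, 14.3 and 15.4 FPKM in LC. Both had differences of 0.34 as deposited and 0.14 after scaling.

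For the hypoxia response, 13 of 60 listed genes were tested, with 3 higher and 0 lower as deposited and 1 higher and 0 lower after scaling. Of the 13, 12 were above 0 as deposited and 11 after scaling, beside 77.1% and 57.6% of all genes tested. The medians were 0.42 and 0.24, beside 0.22 and 0.05 for all genes. Such a shift was not particular to this list. The stress list had 11 and 10 of 13 above 0, with medians of 0.43 and 0.26, and the ion channel list had medians of 0.51 and 0.31. ADORA2B, the adenosine receptor that hypoxia induces in mammals, had 8.63, 6.70 and 4.82 FPKM in HLC, against 3.01, 3.18 and 2.75 FPKM in LC. The difference was 0.93 (standard error 0.27, adjusted p = 0.204) as deposited and 0.76 (adjusted p = 0.378) after scaling. FLT1, a receptor for vascular endothelial growth factor, had 9.32, 9.36 and 8.24 FPKM in HLC, against 5.51, 6.53 and 1.64 FPKM in LC. Both genes kept the groups apart. PLOD2, which hydroxylates collagen lysines, had 28.6, 25.9 and 26.5 FPKM in HLC, against 18.9, 21.4 and 19.7 FPKM in LC (adjusted p = 0.462 from limma), and ERRFI1, an inhibitor of the epidermal growth factor receptor, overlapped.

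For stress and immediate early genes, 13 of 54 were tested, with 3 higher and 0 lower as deposited, and 1 of each after scaling. The higher ones were SDF2L1, ERRFI1 and HSP90AA1 as deposited and SDF2L1 after scaling, and the lower one after scaling was HSF2, a heat shock factor. HSP90AA1, a chaperone, had 601, 846 and 670 FPKM in HLC, against 396, 638 and 375 FPKM in LC. MT4, a metallothionein, had 137, 171 and 129 FPKM in HLC, against 87.3, 45.5 and 173 FPKM in LC. Both overlapped between the groups, with log2 differences of 0.61 and 0.70 as deposited.

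For natriuretic peptides and hypertrophy markers, 6 of 23 genes were tested, with 1 higher and 1 lower under both scalings. INHBA, a subunit of activin, had 5.22, 3.37 and 3.12 FPKM in HLC, against 1.70, 1.52 and 2.35 FPKM in LC, a difference of 0.76 (adjusted p = 0.261). GDF8, myostatin, a brake on muscle growth, had 2.44, 1.74 and 0.855 FPKM in HLC, against 5.36, 3.59 and 5.65 FPKM in LC, a difference of -1.16 (adjusted p = 0.390). Neither overlapped as deposited, and INHBA did after scaling. TGFB2, a growth factor of fibrosis, overlapped with a difference of 0.37.

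For extracellular matrix and its enzymes, 24 of 60 genes were tested, with 1 higher and 2 lower under both scalings. MMP17, a membrane-bound protease, had 2.59, 2.55 and 0.971 FPKM in HLC, against 0.610, 0.625 and 0.952 FPKM in LC, so that HLC3 and LC3 lay side by side. MMP11, a secreted protease, had 3.78, 1.82 and 1.58 FPKM in HLC, against 7.11, 2.55 and 9.86 FPKM in LC, and overlapped. SFRP2, a modulator of Wnt signals made by fibroblasts, had 18.6, 13.4 and 9.66 FPKM in HLC, against 24.3, 21.2 and 20.5 FPKM in LC, with no overlap (difference -0.67, adjusted p = 0.370). Without HLC3 none of these was lower at p of 0.05 as deposited. Of the genes that the same paper discusses for altitude or for shared selective sweeps, 9 of 16 were tested. HEYL alone was past p of 0.05 as deposited and none after scaling, and NT5C1A, CH25H and ZDHHC9 overlapped with differences of 0.59, 0.47 and 0.31.

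**Figure D4:**
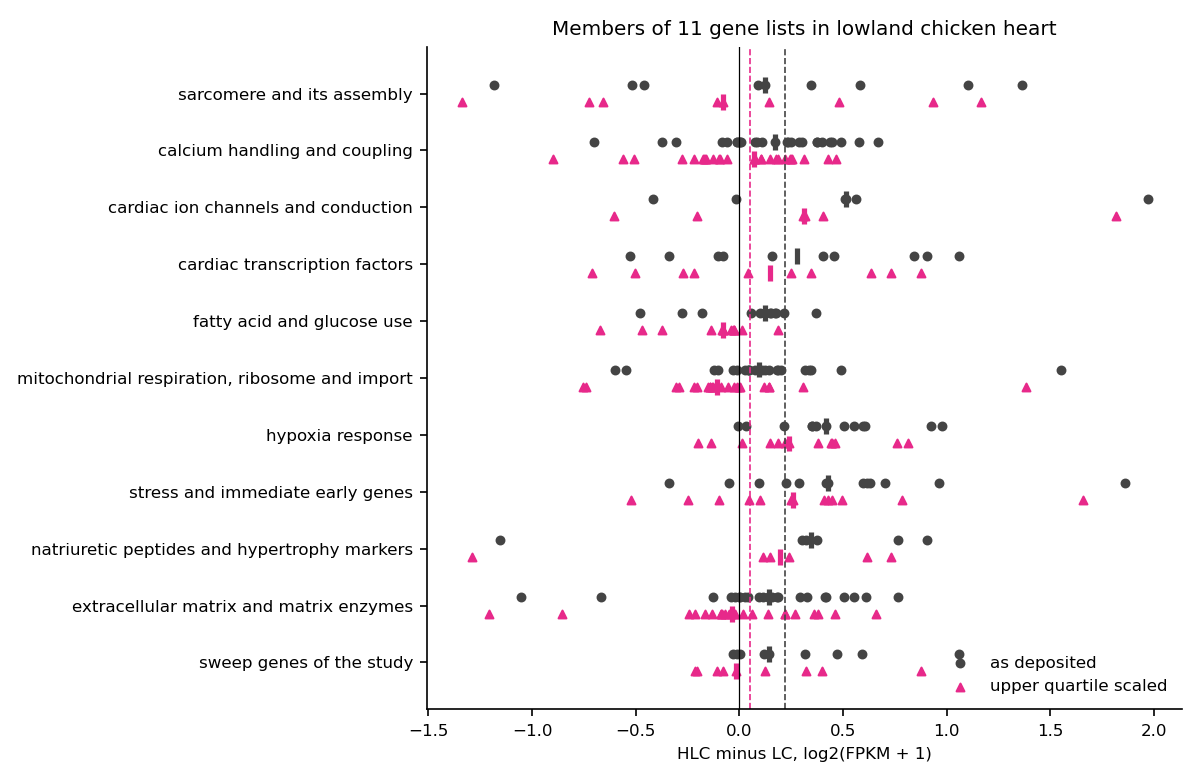
HLC minus LC, log2(FPKM + 1), of each tested member of 11 gene lists, as deposited (grey dots) and after upper quartile scaling (pink triangles), with short bars at the list medians and dashed lines at the medians of all genes, 0.22 and 0.05. The hypoxia list has 12 of 13 members above 0 as deposited and 11 after scaling, beside 77.1% and 57.6% of all genes. The stress list has 11 and 10 of 13 above 0. No member of any list is past the adjusted threshold, and the lists were chosen with earlier results of these data known.

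Markers of the other cell types of the heart were listed in the same way. The marker sums were made on the deposited values only. Smooth muscle markers, 5 genes, summed to 240, 205 and 179 FPKM in HLC, against 115, 122 and 164 FPKM in LC, with no overlap as deposited. ACTG2, an actin of visceral and vascular smooth muscle, had 73.0, 62.0 and 67.0 FPKM in HLC, against 31.4, 32.1 and 46.8 FPKM in LC (log2 difference 0.87, adjusted p = 0.272). The other members PPP1R12B, CSRP1, PRKG1 and CALD1 overlapped between the groups. Endothelial markers, 5 genes, summed to 190, 158 and 111 FPKM in HLC, against 111, 91.4 and 122 FPKM in LC, and overlapped in the sum. FLT1 and EFNB2 did not overlap in either scaling, and FLT4 overlapped only after scaling. The higher FLT1 values therefore stood beside other endothelial markers with differences of 0.48 for EFNB2, 0.64 for FLT4, 0.78 for TMEM204 and 0.35 for RAMP2, and the part of the endothelium in FLT1 was not tested.

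Fibroblast markers, 8 genes, overlapped at 288 to 505 FPKM in HLC, against 254 to 461 FPKM in LC. SFRP2, given above at -0.67 with HLC below LC, is one of them, and the differences of the other 7 lay between -0.13 and 0.18 as deposited. The keratins KRT14 and KRT19, listed here under epicardium and valve, were at most 2.45 FPKM. Of the nerve markers, STMN2 had 3.70, 1.68 and 2.79 FPKM in HLC, against 1.04, 0.332 and 1.20 FPKM in LC (log2 difference 0.999, adjusted p = 0.184), TUBB3 overlapped, and SLC1A2 had 1.08, 0.800 and 1.29 FPKM in HLC, against 0.643, 0.674 and 0.222 FPKM in LC. The liver markers SLC25A47 and FABP1 and the skeletal muscle marker MYBPC1 overlapped at 4.18 FPKM or less.

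Among white blood cell markers FGR, a Src-family kinase of myeloid cells, did not follow the rest. It had 40.9, 37.3 and 24.0 FPKM in HLC, against 22.8, 14.3 and 16.4 FPKM in LC, and was lowest in HLC3 of the HLC libraries (log2 difference 0.89, adjusted p = 0.336). LSP1, a leukocyte actin-binding protein, had 27.7, 25.5 and 55.7 FPKM in HLC, against 27.1, 16.1 and 19.8 FPKM in LC. BLNK and SASH3, adaptors of B and T lymphocytes, had 12.5 and 11.9 FPKM in HLC3 and at most 3.24 FPKM in the other 5 lowland libraries. Their differences were 0.84 and 0.58 with HLC3 and -0.11 and -0.28 without it. The median of the 14 tested markers was 0.08 with HLC3 and -0.52 without it.

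Tibetan chickens were compared across the same altitudes to ask whether lowland hearts differed from them. In TC minus LTC 0 genes were past the threshold with limma in either scaling, with 1898 at an unadjusted p under 0.05 as deposited and 1254 after scaling. The median difference of all genes was -0.24 as deposited and -0.04 after scaling, against 0.22 and 0.05 in lowland chickens. The interaction, the Tibetan difference minus the lowland one, was past the threshold in 289 genes as deposited, 19 positive (0.183%) and 270 negative (2.60%). After scaling 19 genes remained in all, 11 positive (0.106%) and 8 negative (0.0771%), every one of them among the 289. ENSGALG00000027880 was in both counts, and ENSGALG00000020303 in the 289 only. Both passed the filter only through the HLC libraries, so their interactions are not independent of the filter. Of the 270 negative genes, 267 were above 0 in lowland and below 0 in Tibetan chickens, and of the 11 positive genes after scaling all 11 were below 0 in lowland and above 0 in Tibetan chickens. These signs follow in large part from the call and are no further support. Of all genes tested, 77.1% were above 0 in lowland and 21.4% in Tibetan chickens as deposited. After scaling the shares were 57.6% and 45.5%.

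These counts depended on single libraries. As deposited 8 libraries moved the count by more than 1.5 times when left out, to 3 to 5 genes without HLC1 or HLC2, 18 without LC2, 495 without LC3, 4 to 10 without an LTC library and 1 without TC3. After scaling the count was 1 to 3 without any one HLC library, 3 without LC2, 76 without LC3, 1 to 7 without an LTC library, 43 without TC2 and 1 without TC3.

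**Figure D5:**
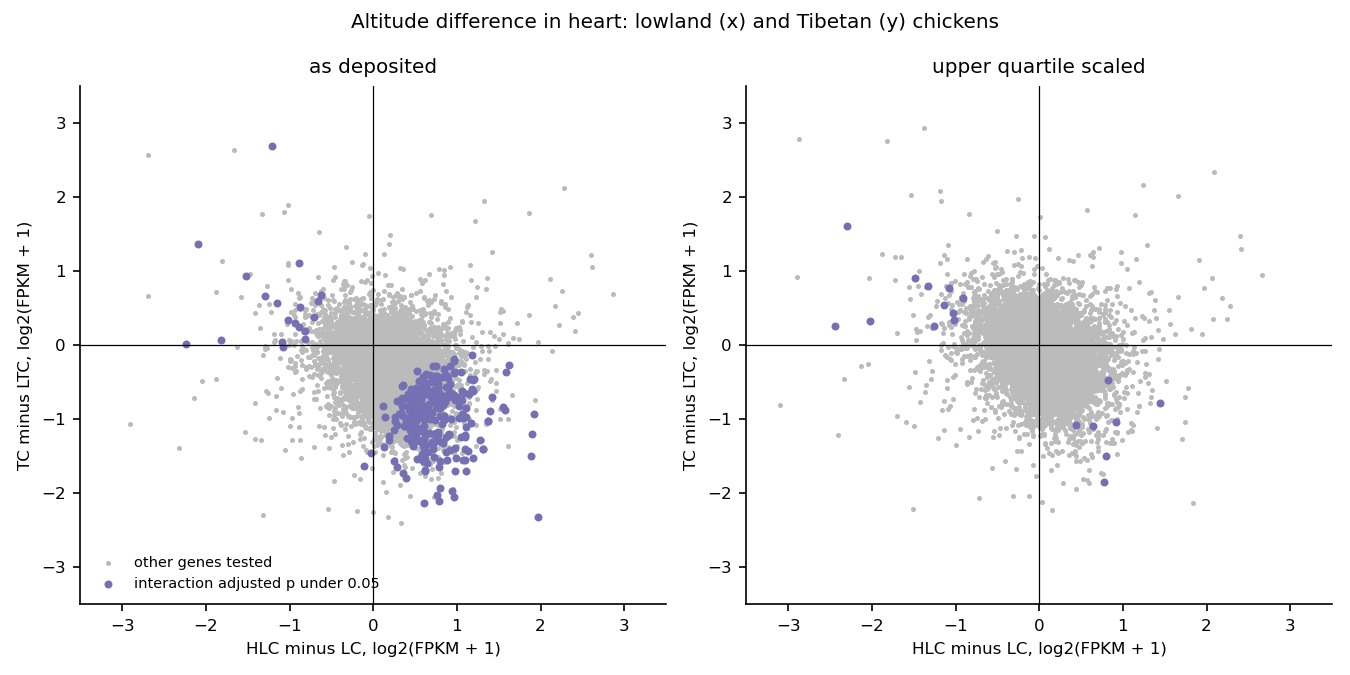
Altitude difference of each gene tested in lowland chickens (x, HLC minus LC) and in Tibetan chickens (y, TC minus LTC), log2(FPKM + 1), as deposited (left) and after upper quartile scaling (right), with genes past the interaction threshold in purple. The 289 purple genes as deposited lie mostly at lower right, 19 remain after scaling, and 6 genes lie outside the axes of each panel.

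Of the 289, 11 had a symbol, all with a negative interaction, and none of these passed after scaling. FAM101B, a regulator of actin filaments, had 37.3, 42.1 and 34.1 FPKM in HLC, against 22.3, 22.6 and 29.0 FPKM in LC, and 19.2, 8.83 and 20.7 FPKM in TC, against 47.0, 50.1 and 38.9 FPKM in LTC. The interaction was -2.11 (standard error 0.38, adjusted p = 0.036), and -1.67 after scaling (adjusted p = 0.102). RAMP2, which makes an adrenomedullin receptor in endothelium, had 111, 101 and 62.7 FPKM in HLC, against 74.0, 45.2 and 99.8 FPKM in LC, and 43.1, 30.9 and 40.7 FPKM in TC, against 107, 155 and 126 FPKM in LTC. Its interaction was -2.08 (adjusted p = 0.0385, and 0.144 after scaling). In both genes the Tibetan groups were apart, and in RAMP2 the lowland groups overlapped. The other 4 endothelial markers summed to 49.7, 17.7 and 56.9 FPKM in TC, against 53.8, 51.5 and 50.5 FPKM in LTC, and overlapped. In the lowland libraries they summed to 79.4, 56.9 and 48.2 FPKM in HLC, against 37.5, 46.2 and 22.7 FPKM in LC.

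The interaction of FGR was -2.44 (adjusted p = 0.0388, and 0.114 after scaling). ADORA2B had 4.19, 1.76 and 2.52 FPKM in TC, against 3.53, 5.64 and 5.41 FPKM in LTC, which with its lowland values gave an interaction of -1.57 (adjusted p = 0.0478, and 0.171 after scaling). SDF2L1 had 5.997, 6.80 and 6.79 FPKM in TC, against 6.13, 7.40 and 9.56 FPKM in LTC, and an interaction of -1.15 (adjusted p = 0.0423, and 0.200 after scaling). CYB5A and TOMM20 followed with -1.002 and -0.89 (adjusted p = 0.0497 and 0.0487, and 0.329 and 0.453 after scaling). Of the genes without a symbol, ENSGALG00000008040 had a positive interaction past the threshold in both scalings, 2.25 as deposited (adjusted p = 0.0198) and 2.70 after scaling (adjusted p = 0.0226), with a Tibetan difference of 0.01. For ENSGALG00000014433 the interaction was 1.43 (adjusted p = 0.0593) as deposited and 1.88 (adjusted p = 0.0866) after scaling. Its Tibetan values went the same way as the lowland ones and did not overlap as deposited. They were 76.1, 43.6 and 75.3 FPKM in TC, against 89.8, 118 and 106 FPKM in LTC, a difference of -0.71 (adjusted p = 0.185 from limma). The interaction of SLC22A3 was -2.22 (adjusted p = 0.0722). The genes of this paragraph were named by their lowland values, and FGR also by its interaction. The lowland difference is part of the interaction, so these interactions are no separate support for them.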

How the data were processed

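Members, gene lists and tests were chosen with earlier results of these data known. Per the labels, total RNA was extracted with TRIzol and sequenced from TruSeq libraries, and according to the submitters' processing notes Cufflinks 2.2.1 and TopHat were run on galGal4. Annotation release and options were not stated. The authors deposited FPKM per gene and library. Low values are not whole multiples of 1 read, so depth is unknown, no counting error can be given and no count model was used. The summed FPKM of the 12 heart libraries lay between 594208 and 828767.

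For the tests, log2(FPKM + 1) entered limma 3.58.1 (R 4.3.3), with a mean for each of the 4 heart groups (12 libraries) and a variance trend. Tests were 2-sided with a threshold of adjusted p under 0.05. Upper quartile scaling multiplied each library so that its 75th percentile over the genes tested equalled the geometric mean of the 12.

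ACTN2, DOCK2, RYR2, CACNA1C, HSF2 and CALD1 were named outside any rule. The other genes with a symbol were named by a rule. It takes the 8 largest in each direction past the threshold in each scaling, or, where none passed, the 4 with the smallest p, up to 4 members of each list by p as deposited, and the 3 largest interactions. It also takes at most 2 genes without a symbol in each direction that were past the threshold in both scalings. Genes listed at 0 in a whole group were kept out of it, and some genes that it takes are not reported here. Symbols were paired with IDs through the supplementary gene list of a population genomics paper on chickens and are a small and unrepresentative part of the table. No sequence is printed, since no genome or sequence table was at hand.

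Alternatives were a pseudocount of 0.1, no filter, a filter at a mean of 5 FPKM, no trend, the 6 lowland libraries, all 48 libraries, a replicate block, median of ratios, quantile normalization and leaving out each library.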

Additional observations from a re-analysis of the deposited data

Results flagged for a closer look

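The altitude difference of lowland hearts differed from that of Tibetan hearts, by the interaction test, in 289 genes as deposited and in 19 after upper quartile scaling (limma, Benjamini-Hochberg). Of the genes listed at 0 in all libraries of HLC or of LC, 2 were in the first count and 1 in the second. Both counts rested on single libraries. Leaving out 1 heart library at a time gave 1 to 495 genes as deposited and 1 to 76 after scaling. The interactions of the named genes, the Tibetan difference minus the lowland one as deposited, were -2.44 for FGR, -2.11 for FAM101B, -2.08 for RAMP2, -1.57 for ADORA2B, -1.15 for SDF2L1, -1.002 for CYB5A and -0.89 for TOMM20. None of these 7 was past the threshold after scaling. The interaction of ENSGALG00000008040 was 2.25 and was past it in both scalings. FGR, FAM101B and RAMP2 were named among the largest interactions. The others were named by their lowland values, which enter the interaction. The interactions of these named genes are therefore no separate support.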

How the results depend on the processing

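The count of genes past the threshold for HLC minus LC, 4 as deposited and 13 after upper quartile scaling, was small and moved with most settings. As deposited it was 7 with a pseudocount of 0.1, 17 with no filter, 8 with the stricter filter, 9 with only the 6 lowland libraries, 786 with all 48 libraries, 8 with median of ratios, 13 with the upper quartile, and 10 with quantile normalization. After scaling it was 20 with the stricter filter, 3 with the 6 lowland libraries, 412 with all 48 libraries, 8 with median of ratios, and 5 without the genes listed at 0 in a whole group, a setting chosen after seeing the data. For the interaction, the 289 genes as deposited became 36 with no filter, 3025 with all 48 libraries, 19 with the upper quartile and 24 with quantile normalization. The 19 genes after scaling became 36 with the stricter filter, 34 without a trend and 1288 with all 48 libraries. The cause was not tested in these cases.

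With the replicate number as a block the counts were 4 as deposited and 4 after scaling for HLC minus LC, and 20 and 1 for the interaction. Deviations of same-numbered libraries correlated at -0.279, 0.253 and -0.124 between HLC and LC and at -0.113, -0.0258 and 0.0493 between TC and LTC, so the numbers were not taken to pair the samples. Leaving out each of the 12 heart libraries in turn gave 3 to 21 genes as deposited and 4 to 35 after scaling for HLC minus LC, and 1 to 495 and 1 to 76 for the interaction.

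None of the genes whose sign turned was past the threshold. With the upper quartile and with quantile normalization MMP2 became -0.050 and -0.075. COL12A1 became -0.022 with quantile normalization, and -0.010 with a pseudocount of 0.1 after scaling. Leaving out single libraries gave ranges that cross 0 as deposited for SMOC2 (-0.34 to 0.19), COL12A1 (-0.10 to 0.56), BLNK (-0.11 to 1.35) and SASH3 (-0.28 to 1.02). After scaling they did so for CH25H (-0.0019 to 0.54), ZDHHC9 (-0.018 to 0.36), MMP2 (-0.21 to 0.089), SMOC2 (-0.42 to 0.093), COL12A1 (-0.17 to 0.41), KRT14 (-0.0093 to 0.43), KRT19 (-0.012 to 0.67), BLNK (-0.18 to 1.18), SASH3 (-0.36 to 0.85), SLC25A47 (-0.10 to 0.39) and RAMP2 (-0.17 to 0.45).

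With 3 libraries a group and unknown depth, a gene that missed the threshold is not shown to be equal at both altitudes.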
